A study of Mus musculus with 4 samples.

Results

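How far the RNA difference between Menin knockout (KO) and wild-type (WT) Th2 cells depended on the time in culture was described gene by gene. Each gene's KO to WT ratio in the longer culture was compared with its ratio after 5 days. The ratio was taken as log2((KO + 1)/(WT + 1)) of FPKM, the read fragments scaled to transcript length and library depth. The genotype by time difference is the value of the longer culture minus that of 5 days, so a positive difference means a KO to WT ratio that was higher later. Symbols with a mean FPKM of at least 1 over the 4 libraries were compared, leaving out symbols that start with Mir, Snor or Scarna. This held for 10812 of 23284 symbols.

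The cells were C57BL/6 mouse splenic CD4 T cells driven towards the Th2 type, WT or Menin KO. The 5-day groups (WT 5-day and KO 5-day) were stimulated in IL-2 (15 ng/ml) plus IL-4 (10 ng/ml). The longer groups (WT 3-week and KO 3-week by their labels) had the same first 5 days, then a 2-day rest with no cytokine added, then a restimulation of 5 days by immobilized anti-TCR antibody (against the T cell receptor) in the presence of IL-2 and anti-IL-4. Culture time, restimulation and the IL-4 supply therefore cannot be told apart. The labels' steps do not fill 3 weeks, and how Menin was deleted, and in how many mice, is not known here.

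Each of the 4 groups held 1 library, so there is no replicate error, no test and no p-value for any value below. Depth read from the whole-read steps of low FPKM values was 20.7 (WT 5-day) to 23.6 (WT 3-week) M reads. Where an interval is given it is a 95% counting interval on the log2 ratio of the 2 KO to WT ratios, without the pseudocount. It covers counting error only, and for low genes it can lie away from the difference on the log2(FPKM + 1) scale. Where 2 values are joined without a group name, WT comes first and KO second. In bulk RNA, fewer cells of a type and less RNA per cell cannot be told apart.

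Menin is a scaffold protein of the MLL histone methyltransferase complexes of the Trithorax group, which mark active promoters and help to keep transcription states through cell division. Th2 cells are the helper T cells that make IL-4, IL-5 and IL-13 under the transcription factor GATA3. Repeated stimulation normally turns recently primed cells, which still carry naive cell RNA such as Tcf7, into effector cells with open cytokine genes. An interaction of genotype with time asks which RNAs part only in the later state and which parted early.

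Men1, the gene of Menin (chromosome 19, 6334979 to 6340891, GRCm38), was measured at 32.8 FPKM (WT) and 10.3 FPKM (KO) after 5 days, and 25.4 and 5.88 FPKM in the longer culture. Its KO to WT ratio was -1.58 early and -1.94 late, a genotype by time difference of -0.36 (counting interval -0.67 to -0.22). The targeted gene was thus lower in both KO libraries and belonged to the genes whose difference persisted. These values are per gene and do not resolve exons.

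T cell RNA was present in all 4 libraries, and the marker sums of other cell types were far lower. The 7 matched T cell markers summed to 1513 (WT) and 1575 FPKM (KO) after 5 days and to 1487 and 2214 FPKM in the longer culture. The members did not move as 1: in the longer culture Cd3e, Cd3d, Cd3g and Cd4 were higher in KO, and Cd2, Cd5 and Lck were lower. Cd3g then stood at 389 (WT) and 1028 FPKM (KO), and Cd5 at 81.3 and 3.51 FPKM. The 6 NK cell markers summed to 0.337 (WT 5-day), 2.24 (KO 5-day), 0.0174 (WT 3-week) and 2.42 FPKM (KO 3-week), with 0 of 6 reaching a mean of 1 FPKM. The 7 matched myeloid markers summed to 4.31, 9.42, 3.48 and 19.9 FPKM. In KO 3-week that sum held 12.9 FPKM of Cd68, 4.75 FPKM of Itgam, 2.03 FPKM of Cd14 and 0.245 FPKM of S100a8. Itgam, Cd14 and S100a8 were all highest in that library, while the macrophage gene Lyz2 was listed at 0 there and the granulocyte gene S100a9 at 0 in all 4 libraries. The 5 B cell markers summed to 1.62, 2.72, 0.155 and 0.278 FPKM. NK cell and myeloid sums were thus higher in the KO libraries and highest in KO 3-week, and their part in the genes described below was not tested.

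Genotype by time differences of at least 2-fold were about as common in each direction. They were higher in 440 genes (4.07%) and lower in 451 (4.17%), and at least 4-fold in 88 (0.814%) and 41 (0.379%). The split between higher and lower depended on the scaling, since upper-quartile scaling gave 516 higher and 341 lower, 60.2% higher against 49.4% as deposited. KO against WT within a time passed 2-fold far more often late. After 5 days KO exceeded WT by 2-fold or more in 270 genes (2.50%), and WT exceeded KO in 48 (0.444%). In the longer culture these numbers were 837 (7.74%) and 843 (7.80%).

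Genes were sorted by the size of the genotype ratio at each time. A difference appeared where the log2 ratio was under 0.5 in size after 5 days and at least 1 in size later, with a genotype by time difference of at least 1 in size. This held for 196 genes higher in KO (1.81%) and 254 lower (2.35%), a balance that upper-quartile scaling reversed (215 and 179). A difference grew, keeping its sign from at least 0.5 and gaining at least 1, in 196 genes higher in KO (1.81%) and 97 lower (0.897%). It turned, with opposite signs of at least 0.5 in size, in 17 genes that ended higher (0.157%) and 35 that ended lower (0.324%). It vanished where it fell from at least 1 to under 0.5 in size, with a genotype by time difference of at least 1 in size. This held for 17 genes that had been higher (0.157%) and 5 that had been lower (0.0462%). A difference shrank by at least 1 without vanishing in 2 higher genes (0.0185%) and 1 lower gene (0.00925%), and persisted within 2-fold in 117 higher (1.08%) and 18 lower genes (0.166%). Appearing and growing differences were therefore far more numerous than vanishing ones. The edge of the appearing class is arbitrary: Slc6a9, a glycine transporter gene, lay just inside at 1.02 in the longer culture, and Dusp1, a phosphatase gene of stimulated cells, and H2-Q4, a class I MHC gene, just outside at 1.00.

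**Figure D1:**
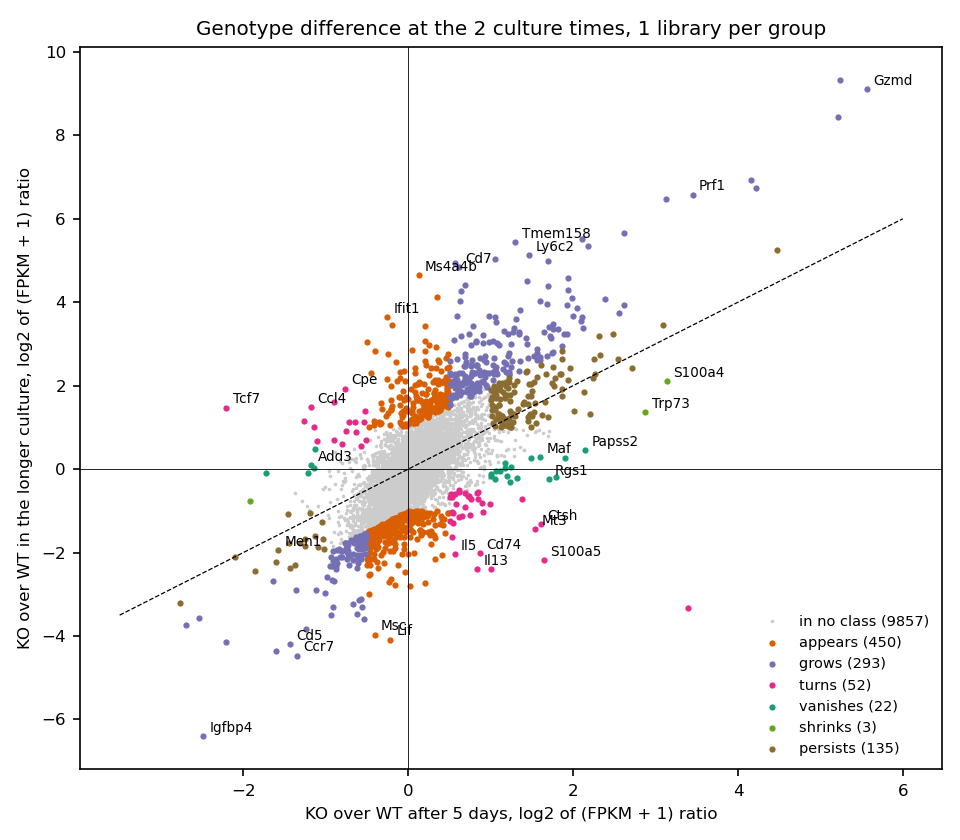
Log2 ratio of (FPKM + 1), KO over WT, after 5 days (horizontal axis) and in the longer culture (vertical axis) for the 10812 compared genes, 1 point per gene, coloured by class, with the dashed line marking equal ratios. Appearing genes (450) form vertical bands above and below the centre, growing genes (293) lie beyond the dashed line on both sides, and the 52 turning genes lie in the upper left and lower right.

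Interferon-stimulated genes made up 13 of the 196 differences that appeared higher in KO, a class of 1.81% of all genes. These genes are switched on when interferon signalling assembles STAT and IRF factors on a promoter element called the ISRE. Of 35 listed genes 30 reached the mean of 1 FPKM, which a gene can do through KO 3-week alone. Mx2 did so, at 0.356 and 0.704 FPKM after 5 days and 0.591 and 3.12 FPKM in the longer culture. Ifit1, Rsad2, Rtp4, Oasl1 and Oasl2 also reached that mean only with their KO 3-week value, their highest. All of these are among the 15 counted next, so the filter favoured that count. Among the 30, 15 had a genotype by time difference at least 2-fold higher (against 4.07% of all genes) and 0 were at least 2-fold lower. The list's median difference was 1.00, where the median of all genes was -0.08.

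Ifit1, which encodes a protein that binds foreign RNA caps (chromosome 19, 34640871 to 34650009), was measured at 1.92 FPKM (WT) and 1.45 FPKM (KO) after 5 days, and 0.121 and 13 FPKM in the longer culture. The difference was 3.89 (counting interval 5.93 to 8.17). Isg15, the ubiquitin-like modifier, stood at 5.41 and 4.61 FPKM after 5 days and 2.44 and 36.8 FPKM in the longer culture in WT and KO respectively, a difference of 3.65. For both genes the 5-day libraries nearly coincided, WT 3-week was the lowest of the 4 and KO 3-week the highest.

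The antiviral gene Rsad2 had the same lowest and highest library, with 1.12 and 1.45 FPKM after 5 days and 0.259 and 9.61 FPKM in the longer culture, a difference of 2.87. Rtp4, a transporter gene induced by interferon, gave 1.12 and 1.44 FPKM after 5 days and 0.0616 and 10.5 FPKM in the longer culture, a difference of 3.23. Members of the same list with a smaller difference were the RNA sensor genes Ddx58 (1.32) and Ifih1 (1.09) and the transcription factor gene Irf9 (1.24). Irf7, an amplifier of the interferon response, had been somewhat higher in KO after 5 days and belonged to the growing class, at 9.5 and 16 FPKM after 5 days and 5.43 and 40.4 FPKM in the longer culture. The 3 members with a difference below 0 were Ifi27l2a, at 67 and 129 FPKM after 5 days and 119.8 and 162 FPKM in the longer culture, with -0.51, and Bst2 and Ifi35 with -0.15 and -0.08. Interferon gamma itself (Ifng) was measured at 0.477 FPKM (WT) and 0.7 FPKM (KO) after 5 days, and 0.168 and 6.03 FPKM in the longer culture, a difference of 2.39, with 25.9% of its exon bases overlapped by an annotated transcript on its strand.

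Promoter windows (250 bases before to 50 after the start, RefSeq, GRCm38.p6) are shown for 3 members with large differences, chosen because their letters hold the ISRE the group is known for. Capitals mark matches to the ISRE pattern, which is TTTC, any 2 bases and TTTC again, on either strand, with overlapping matches merged. The windows are chr19:34640639-34640938, plus strand for Ifit1, chr4:156200769-156201068, minus strand for Isg15 and chr12:26456403-26456702, minus strand for Rsad2.
Ifit1: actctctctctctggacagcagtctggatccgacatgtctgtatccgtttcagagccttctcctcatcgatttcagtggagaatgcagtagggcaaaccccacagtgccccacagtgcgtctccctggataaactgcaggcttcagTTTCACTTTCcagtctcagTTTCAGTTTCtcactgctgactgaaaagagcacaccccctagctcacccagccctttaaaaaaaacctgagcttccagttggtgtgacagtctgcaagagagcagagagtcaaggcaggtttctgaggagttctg
Isg15: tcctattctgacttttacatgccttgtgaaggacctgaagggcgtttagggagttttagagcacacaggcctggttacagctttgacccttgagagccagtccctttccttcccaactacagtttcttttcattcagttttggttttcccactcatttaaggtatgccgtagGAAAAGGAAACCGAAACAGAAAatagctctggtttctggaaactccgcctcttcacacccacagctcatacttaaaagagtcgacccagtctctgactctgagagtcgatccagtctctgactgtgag
Rsad2: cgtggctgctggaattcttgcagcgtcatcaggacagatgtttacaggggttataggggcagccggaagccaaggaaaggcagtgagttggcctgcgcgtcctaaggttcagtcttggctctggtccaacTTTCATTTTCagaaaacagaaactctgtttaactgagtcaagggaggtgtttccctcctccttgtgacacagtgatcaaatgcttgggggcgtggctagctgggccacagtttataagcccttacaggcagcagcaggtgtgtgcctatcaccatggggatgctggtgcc

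The Ifit1 window held 2 matches, that of Isg15 3 overlapping ones and that of Rsad2 1. In the interferon-stimulated members that appeared higher, 6 of the 9 genes with a window held the motif (66.7%), and in the whole list 13 of 21 (61.9%). Among all genes that appeared higher it was 14 of 130 (10.8%), among those that appeared lower 8 of 199 (4.02%) and among compared genes 299 of 7773 (3.85%). Over all RefSeq genes with a window the share was 3.99%. The AP-1 motif TGANTCA, on either strand, stood in 13.8% of windows of genes that appeared higher, 6.03% of those that appeared lower and 5.83% of compared genes. These are shares of letters found and say nothing of binding.

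Other genes with a large difference of this class differed in which library stood apart. Ms4a4b, a four-pass membrane protein gene of T cells (chromosome 19, 11443553 to 11467055), had the highest difference of the 10812 genes, 4.53. It stood at 40.5 FPKM (WT) and 44.2 FPKM (KO) after 5 days, and 1.7 and 67 FPKM in the longer culture (counting interval 4.53 to 5.75). Its neighbour Ms4a6b stood at 37.9 and 26.6 FPKM after 5 days and 1.78 and 21.8 FPKM in the longer culture. In both, WT 3-week stood apart as low. KO 3-week was above KO 5-day for Ms4a4b and somewhat below it for Ms4a6b. The sialyltransferase gene St8sia1 also had WT 3-week as the low library, at 8.28 and 6.82 FPKM after 5 days and 0.566 and 9.53 FPKM in the longer culture, a difference of 2.99. The Ms4a genes are related copies between which reads may be split.

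A second layout had KO 3-week standing apart as high. Nov, a matricellular growth factor gene, was measured at 0.664 FPKM (WT) and 1.12 FPKM (KO) after 5 days, and 0.195 and 19.9 FPKM in the longer culture, and Ccl5, which encodes a chemokine, at 38.4 and 34.7 FPKM after 5 days and 47.4 and 286 FPKM in the longer culture. Their differences were 3.78 and 2.71. C1ql3, a secreted C1q-like protein gene, stood at 0.0163 and 0.0537 FPKM after 5 days and 0.307 and 8.43 FPKM in the longer culture, but 61% of its exon bases overlap an antisense gene. The library kit keeps strand, and the strand setting of the authors' quantification is not known here. Of the interferon-inducible Mndal, the difference was 3.24, from 15.3 and 11.4 FPKM after 5 days and 3.02 and 27.8 FPKM in the longer culture. Unlike in the genes before it, the change over time was larger in WT (-2.02) than in KO (1.22), so WT 3-week stood apart by more.

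Integrin and adhesion genes contributed in both directions. Of 20 compared members 6 parted upwards by 2-fold or more and 1 downwards (median 0.59, against 4.07% and 4.17% of all genes). The former included Itgam, also a myeloid marker, which reached the mean of 1 FPKM only through KO 3-week (4.75 FPKM). The tetraspanin gene Cd9 appeared higher at 5.9 and 7.37 FPKM after 5 days and 0.128 and 5.07 FPKM in the longer culture, and the related Cd81 appeared lower at 76.3 and 73.8 FPKM after 5 days and 78.8 and 20.3 FPKM in the longer culture. Cd9 was low in WT 3-week alone and Cd81 in KO 3-week alone, so these tetraspanins parted in opposite directions.

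**Figure D2:**
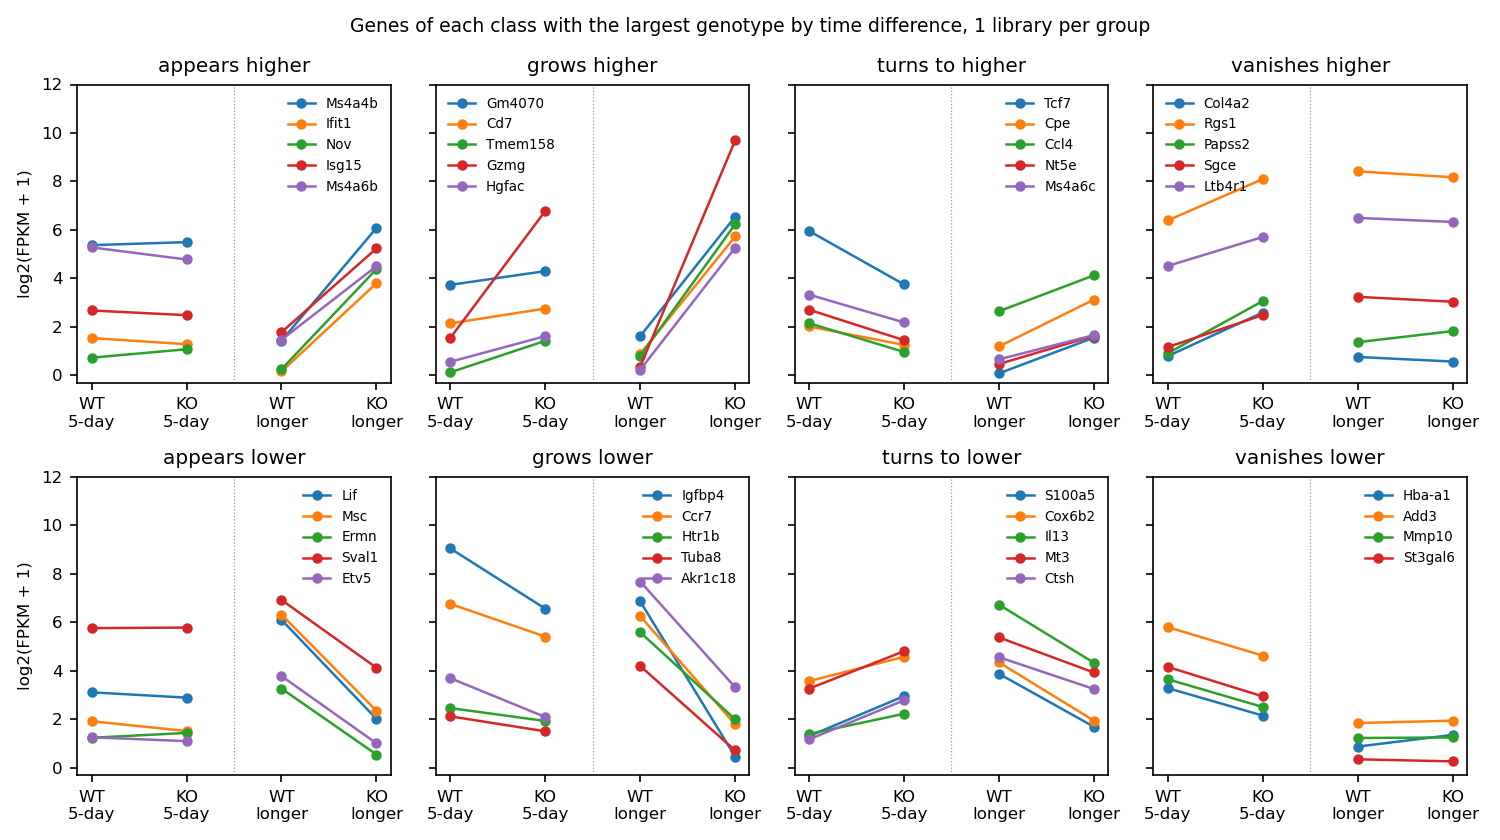
Log2(FPKM + 1) of genes in the 4 libraries, joined within a culture time, for up to 5 genes of each class with at least 5 FPKM in 1 library and the largest genotype by time difference (Gm12238, a transcript of 124 bases, is left out). Lines are flat on the left and steep on the right in the appearing classes, tilt in opposite ways in the turning classes, and are steep on the left and flat on the right in the vanishing classes.

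Differences that appeared lower in KO were led by Lif and Msc. Lif, a cytokine of the IL-6 family (chromosome 11, 4257557 to 4272514), was measured at 7.64 FPKM (WT) and 6.42 FPKM (KO) after 5 days, and 67.5 and 3.04 FPKM in the longer culture, a difference of -3.87 (counting interval -4.48 to -3.97). Msc, a basic helix-loop-helix repressor gene, stood at 2.78 and 1.86 FPKM after 5 days and 78.5 and 4.09 FPKM in the longer culture, a difference of -3.56, with 21.2% of its exon bases under an antisense gene. In both the WT 3-week library was far above the other 3. The same held for Etv5, an ETS factor gene, at 1.39 and 1.14 FPKM after 5 days and 12.7 and 1.01 FPKM in the longer culture, and for the nuclear receptor gene Pparg, which helps Th2 cells take up their effector state, at 22.3 and 27.2 FPKM after 5 days and 64.1 and 21.9 FPKM in the longer culture. In Etv5 the difference was -2.62 and in Pparg -1.78. Etv5 had 6.25 to 8.3 implied reads in the other 3 libraries by its median annotated transcript length. Its longest transcript has 3975 bases, so these reads may be too few. Fgf2, a growth factor gene, and Csf2, the gene of GM-CSF, had differences of -2.47 and -2.46. Both had few implied reads outside WT 3-week (counting intervals -7.27 to -0.32 and -4.81 to -2.19). The limit given for Etv5 holds for Fgf2 too, whose longest transcript has 5973 bases.

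In other genes of this class KO 3-week was the library that stood apart. Adk, the gene of adenosine kinase, was measured at 43.4 FPKM (WT) and 42.4 FPKM (KO) after 5 days, and 64.8 and 11 FPKM in the longer culture, a difference of -2.42. The nucleoside diphosphate kinase gene Nme4 stood at 13.1 and 13.8 FPKM after 5 days and 16.4 and 3.29 FPKM in the longer culture, a difference of -2.09. BC048355 and 1190002H23Rik, with differences of -2.42 and -2.52, gave the same order. Sval1 stood at 53.1 and 54 FPKM after 5 days and 120.0 and 16.4 FPKM in the longer culture, where WT 3-week was also above both 5-day libraries. Ermn, a cytoskeletal gene, stood at 1.36 and 1.71 FPKM after 5 days and 8.61 and 0.459 FPKM in the longer culture. Here the change over time was larger in WT (2.03) than in KO (-0.89), so WT 3-week stood apart by more.

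Receptors of activated T cells were part of the class. Il2ra, the high-affinity chain of the IL-2 receptor, stood at 324 and 257 FPKM after 5 days and 638 and 152 FPKM in the longer culture, a difference of -1.73. Tnfrsf8, the gene of CD30, stood at 197 and 160.1 FPKM after 5 days and 293 and 60.5 FPKM in the longer culture, a difference of -1.96. Both were high in either genotype after 5 days and parted later. Of 21 compared TNF family ligands and receptors, 8 had a difference at least 2-fold lower and 2 higher (median -0.43), against 4.17% and 4.07% of all genes. Those that appeared lower were Tnfrsf8, Tnfrsf25, Tnfsf8, Tnfsf11 and Tnfsf14, and those that appeared higher were Tnfrsf1a and Tnfrsf26. Among 20 Th2 regulators and receptors 8 had a difference at least 2-fold lower and 1 higher (median -0.83), against the same shares of all genes. Of the 8, 5 appeared lower (2.35% of all genes did). Maf, described below, is also among the 8, though its KO excess vanished and KO was not lower later. That list held Il1rl1, the IL-33 receptor gene, at 1.05 and 1.74 FPKM after 5 days and 14.9 and 5.32 FPKM in the longer culture, and Ccr8, a chemokine receptor gene of Th2 cells, at 37.6 and 36.7 FPKM after 5 days and 51.8 and 22.3 FPKM in the longer culture.

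Sterol synthesis genes lay mostly in the same direction. These genes are governed together by SREBP factors. Of 22 compared members 21 had a difference below 0 (57.5% of all genes did), 8 at least 2-fold lower (4.17% of all genes) and 0 at least 2-fold higher. In the class that appeared lower were 7 members (2.35% of all genes). The median was -0.58. Cyp51 stood at 9.82 and 7.36 FPKM after 5 days and 16.6 and 3.8 FPKM in the longer culture. The longer culture held its highest level in WT and its lowest in KO.

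Genes of DNA replication and of mitosis nearly all had a difference below 0, mostly short of 2-fold. All 32 compared replication genes lay below 0 (57.5% of all genes did), with a median of -0.69, a lowest value of -1.14 and 5 at least 2-fold lower (4.17% of all genes). Rrm2, a subunit of ribonucleotide reductase, stood at 206 and 203 FPKM after 5 days and 217 and 96.8 FPKM in the longer culture, and the DNA ligase gene Lig1 at 110.2 and 101 FPKM after 5 days and 112 and 46.7 FPKM in the longer culture. Of 27 mitosis genes 26 lay below 0 with a median of -0.72, but 1 reached 2-fold, the cyclin gene Ccnb1 at -1.06. In these lists KO 3-week was the library that stood apart: the median change from 5 days to the longer culture was -0.20 in WT and -0.98 in KO for replication genes, and -0.29 and -0.95 for mitosis genes.

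Ribosome biogenesis genes lay below 0 throughout as well, by a larger median. Their proteins process ribosomal RNA in the nucleolus, and Myc is a known activator of the group. All 26 compared members lay below 0, 14 were at least 2-fold lower (4.17% of all genes were) and 0 at least 2-fold higher, with a median of -1.12. Of these, 9 were in the class that grew lower (0.897% of all genes) and 5 in the class that appeared lower (2.35%). Dkc1, a pseudouridine synthase gene, stood at 25.5 and 16.4 FPKM after 5 days and 43 and 9.05 FPKM in the longer culture, a difference of -1.52. Rrp12 stood at 6.94 and 4.33 FPKM after 5 days and 16.2 and 3.12 FPKM in the longer culture, a difference of -1.49. In both genes WT 3-week was the highest library and KO 3-week the lowest. Myc was measured at 38.4 FPKM (WT) and 20.3 FPKM (KO) after 5 days, and 75.8 and 14.7 FPKM in the longer culture, a difference of -1.40. By contrast 0 of 34 ribosomal protein genes reached 2-fold in either direction, with a median of -0.02 that was 0.058 with median-of-ratios and 0.076 with upper-quartile scaling.

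The genes whose deficit grew in KO were led by Igfbp4, a binding protein gene of insulin-like growth factors, at 527 and 93.4 FPKM after 5 days and 115 and 0.372 FPKM in the longer culture. Its difference was -3.92. The homing receptor gene Ccr7 stood at 107 and 41.5 FPKM after 5 days and 75.3 and 2.45 FPKM in the longer culture and the inhibitory receptor gene Cd5 at 112 and 40.7 FPKM after 5 days and 81.3 and 3.51 FPKM in the longer culture. These 3 genes were already lower in KO early and stood in KO 3-week far below every other library. Irf4, a transcription factor gene that supports Th2 effector function, stood at 37.4 and 19.1 FPKM after 5 days and 67.9 and 5.09 FPKM in the longer culture, a difference of -2.56. Tfrc, the transferrin receptor gene of growing cells, stood at 39.2 and 20.4 FPKM after 5 days and 116 and 10.9 FPKM in the longer culture, a difference of -2.39. The steroid enzyme gene Akr1c18 (-2.76), the tubulin gene Tuba8 (-2.86) and the serotonin receptor gene Htr1b (-3.06) were named by the same rule. Il24 and Lta, a cytokine of the IL-10 family and lymphotoxin, had differences of -2.74 and -2.55, with WT 3-week standing apart as high.

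Genes whose excess in KO grew are described next, chosen by the size of their difference. Cd7, a surface gene of T and NK cells, was measured at 3.43 FPKM (WT) and 5.77 FPKM (KO) after 5 days, and 0.857 and 52.1 FPKM in the longer culture, a difference of 4.23 (counting interval 4.15 to 6.10). Gm4070, a protein-coding gene model on chromosome 7, stood at 12.3 and 18.8 FPKM after 5 days and 2.08 and 92.9 FPKM in the longer culture, a difference of 4.36. In both, KO 3-week was the highest and WT 3-week the lowest library.

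Ramp3, a partner of calcitonin-family receptors, stood at 2.02 and 3.88 FPKM after 5 days and 1.74 and 57.5 FPKM in the longer culture, a difference of 3.72. Esm1, an endothelial proteoglycan gene, stood at 2.24 and 4 FPKM after 5 days and 2.38 and 54.1 FPKM in the longer culture, a difference of 3.40, and Hgfac, a protease gene that activates hepatocyte growth factor, at 0.478 and 2.08 FPKM after 5 days and 0.178 and 37.6 FPKM in the longer culture, a difference of 3.98. In Ramp3 and Esm1, 3 libraries lay at a few FPKM and KO 3-week stood alone far above them. The complement receptor gene C5ar1 was listed at 0 in WT 5-day, so its difference of 3.62 has a counting interval that includes 0 (-2.69 to 5.64). Tmem158 stood at 0.0938 and 1.69 FPKM after 5 days and 0.745 and 74.5 FPKM in the longer culture, a difference of 4.14 whose interval is 1.00 to 4.32.

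NK-type receptors and granule genes were counted with the same rule. Of 15 listed NK-type receptor genes 10 reached the mean of 1 FPKM, which a gene can do through KO 3-week alone. Of these, 7 had a difference at least 2-fold higher (4.07% of all genes did) and 0 lower (median 1.81). Klrd1, the gene of CD94, stood at 1.73 and 3.71 FPKM after 5 days and 0.127 and 11.1 FPKM in the longer culture, and Fcgr3, an Fc receptor gene, at 5.64 and 27.5 FPKM after 5 days and 0.624 and 72.8 FPKM in the longer culture. Of 22 cytotoxic granule genes 10 were at least 2-fold higher (4.07% of all genes) and 0 lower (median 0.80). All 10 were in the class that grew higher (1.81% of all genes). Gzmg was the highest at 4.09, and its reads can be split with the related granzyme copies beside it. Of 19 Th1 regulators and products 9 parted upwards by 2-fold or more and 1 downwards (median 0.94), against 4.07% and 4.17% of all genes. Among the 9 was Ifng, which reached the mean of 1 FPKM only through KO 3-week, where it was highest. Also among the 9 were Tbx21, the Th1 master regulator gene, at 8.08 and 20.7 FPKM after 5 days and 6.68 and 45.3 FPKM in the longer culture and Il12rb2, an IL-12 receptor chain much of whose exon sequence lies under the antisense gene Serbp1, at 6.61 and 18.3 FPKM after 5 days and 3.51 and 41.7 FPKM in the longer culture. The NK marker sum was 0.337 FPKM in WT 5-day and 2.24 in KO 5-day, and 0.0174 in WT 3-week and 2.42 in KO 3-week, so its KO to WT ratio was higher late as well. Its part in these lists was not tested. The CD8 genes Cd8a and Cd8b1 summed to 4.38, 5.70, 2.04 and 3.77 FPKM in the 4 libraries.

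Several genes that turned encode products of Th2 cells. Of 11 listed Th2 cytokine genes 8 reached the mean of 1 FPKM, and Il3, Il9 and Il31 did not. A gene can reach that mean through WT 3-week alone, as Csf2 and Areg did. Of the 8, 4 turned from higher to lower in KO (0.324% of all genes did), 2 appeared lower (2.35%) and 1 grew lower (0.897%). All 8 had a difference below 0 and 7 one at least 2-fold lower (4.17% of all genes), with a median of -2.31. The list's median KO to WT ratio was 0.51 after 5 days and -1.84 in the longer culture. Il6 was the member short of 2-fold, at -0.51.

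Il13 (chromosome 11, 53631324 to 53634702) was measured at 1.62 FPKM (WT) and 3.68 FPKM (KO) after 5 days, and 105 and 19.1 FPKM in the longer culture. The KO to WT ratio was 0.84 early and -2.40 late, a difference of -3.23 (counting interval -4.21 to -3.03). Il5, the eosinophil growth factor gene, stood at 0.971 and 1.91 FPKM after 5 days and 95.1 and 22.4 FPKM in the longer culture, a difference of -2.60, with 27.1% of its exon bases under an antisense gene. Il4 stood at 6.41 and 9.71 FPKM after 5 days and 21.9 and 6.4 FPKM in the longer culture, a difference of -2.17, and the regulatory cytokine gene Il10 at 22.3 and 32 FPKM after 5 days and 108 and 67.2 FPKM in the longer culture, a difference of -1.17. Both genotypes held more Il5, Il13 and Il10 later, WT by more. Il4 was higher later in WT and lower later in KO. The early ratios of Il4, Il5 and Il10 (0.53, 0.56 and 0.50) lay close to the 0.5 that defines a turn, and Il5 had few reads in both 5-day libraries.

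Outside the cytokines, the largest turns to lower values were in S100a5, Cox6b2, Mt3, Ctsh and Cd74. S100a5, a calcium-binding protein gene, stood at 1.47 and 6.73 FPKM after 5 days and 13.7 and 2.22 FPKM in the longer culture, a difference of -3.83 (counting interval -6.14 to -3.22). Cox6b2, a subunit gene of cytochrome c oxidase known from testis, stood at 10.9 and 22.8 FPKM after 5 days and 19.3 and 2.84 FPKM in the longer culture, and the metallothionein gene Mt3 at 8.58 and 26.9 FPKM after 5 days and 40.5 and 14.2 FPKM in the longer culture. Their differences were -3.40 and -2.99. In all 3 genes KO was the higher library after 5 days, and KO 3-week lay below KO 5-day while WT 3-week lay above WT 5-day.

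Ctsh, a lysosomal cathepsin gene, stood at 1.25 and 5.87 FPKM after 5 days and 22.6 and 8.49 FPKM in the longer culture, a difference of -2.93. WT 5-day was the lowest of the 4 libraries and WT 3-week the highest, with both KO libraries between them. Cd74, the invariant chain gene of MHC class II presentation, stood at 10.0 and 19.2 FPKM after 5 days and 13.5 and 2.58 FPKM in the longer culture, a difference of -2.89, and here the KO 3-week library alone was low. The MHC class II gene H2-Ab1 did not turn, at 17.1 and 37.8 FPKM after 5 days and 3.5 and 17.8 FPKM in the longer culture. Tdrkh, a Tudor domain gene, turned by -1.38, with 36.7% of its exon bases under an antisense gene.

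Turns to higher values were fewer and at lower levels. Tcf7, the transcription factor gene of naive and memory T cells, was measured at 61.3 FPKM (WT) and 12.5 FPKM (KO) after 5 days, and 0.0622 and 1.95 FPKM in the longer culture. Its ratio went from -2.21 to 1.47, a difference of 3.68 (counting interval 5.44 to 8.63). Both genotypes held far less Tcf7 later, but WT 3-week was the lower of the late libraries. Foxp1, a factor of quiescent T cells, stood at 11 and 6.71 FPKM after 5 days and 2.35 and 5.23 FPKM in the longer culture, a difference of 1.53. Of 19 naive and memory genes 6 parted upwards by 2-fold or more and 2 downwards (median 0.48), against 4.07% and 4.17% of all genes. Among the latter, the deficit of Ccr7 in KO, given above, was larger later.

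The chemokine genes Ccl4 and Ccl3, neighbours on chromosome 11, turned together. Ccl4 stood at 3.46 and 0.962 FPKM after 5 days and 5.27 and 16.5 FPKM in the longer culture and Ccl3 at 2.69 and 1.2 FPKM after 5 days and 2.81 and 6.14 FPKM in the longer culture, differences of 2.66 and 1.66. In both genes KO was the lower library early and KO 3-week the highest of the 4. Cpe, a peptidase gene of prohormones, stood at 3.06 and 1.39 FPKM after 5 days and 1.29 and 7.74 FPKM in the longer culture, a difference of 2.69. Nt5e, the gene of CD73, which makes adenosine, stood at 5.57 and 1.74 FPKM after 5 days and 0.387 and 2.1 FPKM in the longer culture, a difference of 2.42. Cmpk2, an interferon-induced kinase gene, Ms4a6c and Gramd3 turned by 1.66, 2.15 and 1.78, and 53.1% of the Ms4a6c exon bases lie under an antisense gene.

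Vanishing differences were rare and came about in more than 1 way. Of the 17 that had been higher in KO, 4 were of the kind where WT alone shifted, 6 of the kind where KO alone shifted, and 5 shifted in both genotypes in the same direction. Maf, a transcription factor gene that drives Il4 and Il10, was measured at 13.7 FPKM (WT) and 43.7 FPKM (KO) after 5 days, and 37.5 and 46.3 FPKM in the longer culture, a difference of -1.31. Rgs1, which damps chemokine receptor signals, stood at 83.1 and 273 FPKM after 5 days and 341 and 288 FPKM in the longer culture, a difference of -1.95 (counting interval -2.03 to -1.89). In both genes the 2 KO libraries and WT 3-week lay close together and WT 5-day alone was low. Ltb4r1, a leukotriene receptor gene, and Sgce had differences of -1.36 and -1.52 with late levels above both early ones.

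Other vanishing genes lost the KO excess. Col4a2, a basement membrane collagen gene, stood at 0.738 and 5.04 FPKM after 5 days and 0.698 and 0.489 FPKM in the longer culture and Papss2, an enzyme gene of sulfation, at 0.887 and 7.38 FPKM after 5 days and 1.59 and 2.56 FPKM in the longer culture. Their differences were -1.99 and -1.69, with KO 5-day standing apart as high. On the other side were Add3, a membrane skeleton gene, at 54.8 and 23.7 FPKM after 5 days and 2.58 and 2.84 FPKM in the longer culture, Mmp10, a metalloprotease gene, at 11.6 and 4.68 FPKM after 5 days and 1.34 and 1.37 FPKM in the longer culture, St3gal6, a sialyltransferase gene, at 16.9 and 6.7 FPKM after 5 days and 0.273 and 0.199 FPKM in the longer culture, and the globin gene Hba-a1 at 8.75 and 3.45 FPKM after 5 days and 0.831 and 1.56 FPKM in the longer culture. All 4 were lower in both genotypes later, so the late ratios are between low levels, and for St3gal6 the counting interval includes 0 (-1.70 to 3.70). The St3gal6 interval rests on the median annotated transcript length, while its longest transcript has 4123 bases, so it may be too wide.

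The KO excess shrank without vanishing in 2 genes. S100a4, a calcium-binding protein gene of memory and effector T cells, stood at 59.6 and 532 FPKM after 5 days and 635 and 2743 FPKM in the longer culture, and Trp73, a relative of the p53 gene, at 1.52 and 17.5 FPKM after 5 days and 13.2 and 35.6 FPKM in the longer culture. KO was the higher library at both times and both genotypes stood higher later. The differences were -1.03 and -1.52, and 51.7% of the S100a4 exon bases overlap an annotated transcript on the same strand.

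By arithmetic the genotype by time difference equals the change from 5 days to the longer culture in KO minus that in WT, and the 891 genes with at least 2-fold were divided by these arms. Over all 10812 genes, WT held 294 genes at least 2-fold higher in the longer culture (2.72%) and 276 lower (2.55%). KO held 432 higher (4.0%) and 436 lower (4.03%). The KO arm alone (a change of at least 1 in size in KO and under 0.5 in WT) held 159 of the 440 higher differences (36.1%) and 103 of the 451 lower ones (22.8%). The WT arm alone held 51 (11.6%) and 88 (19.5%). The arms went in opposite directions, each by at least 0.5, in 102 (23.2%) and 80 (17.7%), and in the same direction to unequal extents in 54 (12.3%) and 41 (9.09%). The other 74 and 139 were mixed, with no arm large alone.

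The arm separated genes of the same class. Ly6c2, a surface gene of memory T cells, stood at 59.5 and 166 FPKM after 5 days and 2.65 and 126 FPKM in the longer culture and the kinase gene Sgk1 at 17.6 and 26.2 FPKM after 5 days and 2.94 and 32.9 FPKM in the longer culture. In these WT 3-week was low while KO kept its level, a WT arm. Hgfac, Ramp3 and Esm1 were KO arm genes. Fads2, a fatty acid desaturase gene, stood at 24.7 and 26.3 FPKM after 5 days and 0.582 and 7.48 FPKM in the longer culture, lower later in both genotypes but by less in KO. Lima1, an actin-binding gene, and Upp1, a uridine phosphorylase gene, had differences of 2.49 and 2.22 and were higher later in both genotypes, more so in KO. Hcst, the gene of the adaptor DAP10, at 41.4 and 55.3 FPKM after 5 days and 31 and 103 FPKM in the longer culture, and Swap70, a gene of a cytoskeletal regulator, at 9.56 and 16.9 FPKM after 5 days and 7.34 and 34.1 FPKM in the longer culture, were mixed, with modest shifts in both genotypes. So was Nipsnap1, a mitochondrial protein gene, at 14.7 and 12.3 FPKM after 5 days and 19.9 and 5.83 FPKM in the longer culture. Among lower differences, Il24, Lta and Htr1b were WT arm genes and Cd5 and Nme4 KO arm genes.

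**Figure D3:**
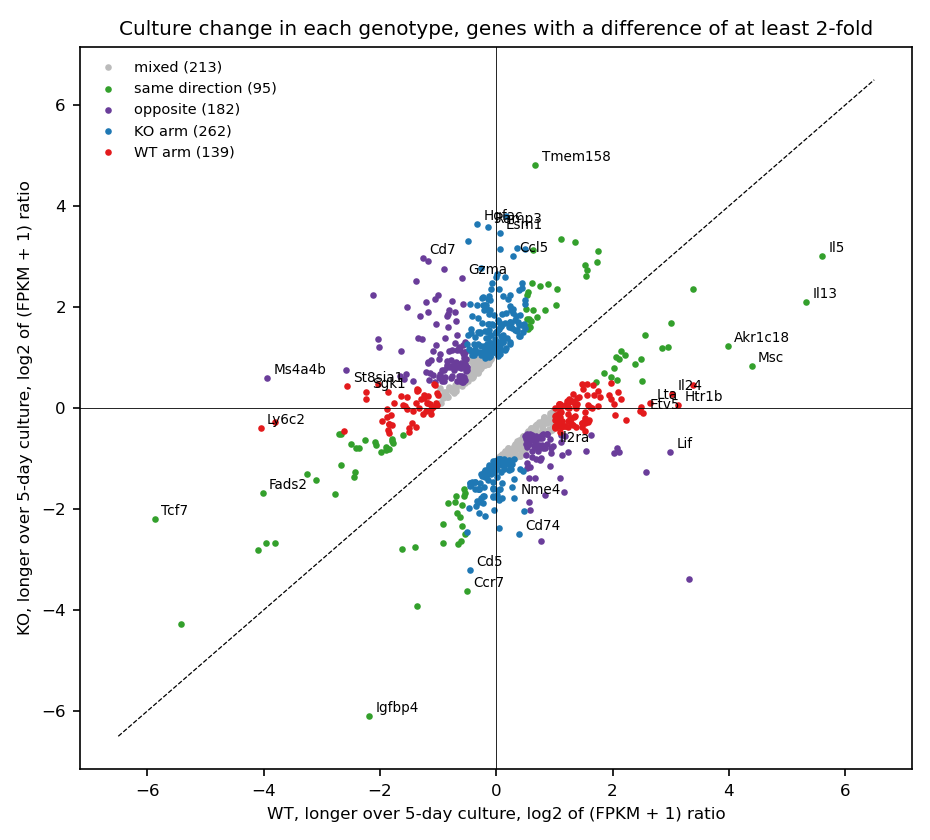
Change from 5 days to the longer culture, log2 ratio of (FPKM + 1), in WT (horizontal axis) and KO (vertical axis) for the 891 genes with a genotype by time difference of at least 2-fold, 1 point per gene, with the dashed line marking equal change. Genes of the KO arm (262) spread along the vertical axis and genes of the WT arm (139) along the horizontal axis, with Il5, Il13, Akr1c18 and Msc far out to the right.

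Genes with a shared difference also lay beside each other. Runs of at least 3 neighbouring compared genes with a difference of at least 2-fold in 1 direction, a rule chosen after the values were seen, numbered 12, with 49 genes, 9 runs higher and 3 lower, among the 9783 genes with a position in GENCODE M21. Related copies can share reads, so such genes are not independent.

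On chromosome 19, from 11404770 to 11604849 (GRCm38), the run was Ms4a4c, Ms4a4b, Ms4a6c, Ms4a6b and Ms4a6d, all higher. On chromosome 1, from 173747293 to 174031810, it was Ifi204, Mndal, Ifi203 and Ifi205, the interferon-inducible p200 family. On chromosome 11, from 83525778 to 83664683, it was Ccl5, Ccl9, Ccl3 and Ccl4. The run of 9 on chromosome 14, from 56082166 to 56262260, held 7 granzyme genes with Mcpt8 and Ctsg. Mcpt8, a basophil protease gene, stood at 0.0754 and 2.63 FPKM after 5 days and 0.266 and 7.93 FPKM in the longer culture, while 5 mast cell and basophil markers summed to between 10.5 FPKM (WT 3-week) and 25 FPKM (KO 5-day) with Ms4a2 listed at 0 in all 4 libraries. A run of lower differences on chromosome 11, from 53567379 to 53634702, was Kif3a, Il4 and Il13. Kif3a, a kinesin gene beside Il4, stood at 8.3 and 6.97 FPKM after 5 days and 23 and 5.15 FPKM in the longer culture, a difference of -1.74. It appeared lower while its cytokine neighbours turned.

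Several other lists had medians nearer to that of all genes, of which 4.07% were at least 2-fold higher and 4.17% lower. Of 24 T cell receptor signalling genes 0 had a difference at least 2-fold higher and 2 lower (median 0.03), the regulators Cd5 and Cd6. Of 28 polycomb genes 3 were lower and 0 higher (median -0.02): Ezh2, the methyltransferase of polycomb complex 2, at -1.20, Rbbp7 at -1.35 and Phf19 at -1.29. None of 16 Menin and MLL complex genes reached 2-fold (0 higher, 0 lower, median -0.28). Of 23 immediate early and AP-1 genes 3 were higher and 3 lower (median 0.02), with Batf3 at -2.59 and Tnfaip3 at 1.22. Gata3 itself had a difference of -0.96, just short of 2-fold, from 72.8 and 69.8 FPKM after 5 days and 93.8 and 45.9 FPKM in the longer culture.

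**Figure D4:**
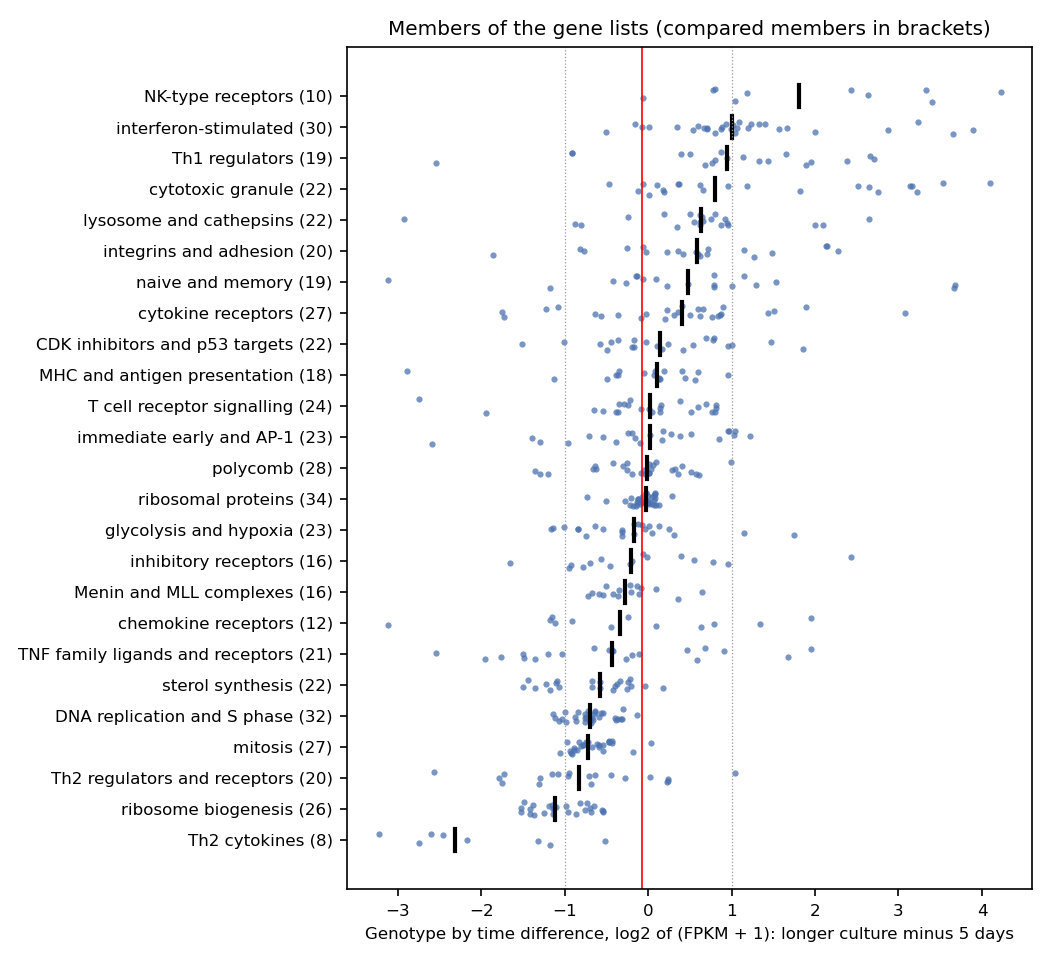
Genotype by time difference, log2 of (FPKM + 1), for each compared member of the 25 gene lists (points), with the list median (black bar), the median of all genes (red line at -0.08) and 2-fold either way (dotted lines). Th2 cytokines (median -2.31) and ribosome biogenesis (-1.12) lie to the left, NK-type receptors (1.81) and interferon-stimulated genes (1.00) to the right, and ribosomal proteins (-0.02) are tightly packed.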

How the data were processed

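RNA from Th2 cells of 4 groups, 1 library each, was extracted with TRIzol and made into libraries by a stranded mRNA method (TruSeq), as the labels' protocols state. The deposited values are FPKM, made by the authors with Bowtie 0.12.8, TopHat 1.3.2 and Cufflinks 2.0.2 on mm10, per the submitters' processing notes, which give no order or role. The annotation, the strand setting and any filter are not known here. Of 23746 lines per file, values of the 240 symbols on several lines (702 lines) were summed, and 1 symbol with a spreadsheet error mark was left out. A further 161 short RNA symbols with a mean of at least 1 FPKM were left out.

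Log2 ratios used a pseudocount of 1. With 1 library per group no test was made. Reads behind a value were inferred from low FPKM values, of which 59.0% to 61.6% lay within 0.05 of a whole read (10% if evenly spread), using GENCODE M21 lengths less 200 bases. Counting intervals add 0.5 reads per library, use median transcript lengths and exist for 9783 of 10812 genes. Where most annotated transcripts of a gene are short, implied reads can be too few and intervals too wide. Motifs (ISRE, AP-1, a sterol element, E2F and E-box) were searched in RefSeq windows of 7773 compared genes. Steps were tested on simulated data (Python 3.11.15, numpy 2.4.6, pandas 2.3.3).

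Named genes were Men1 and, with at least 5 FPKM in 1 library, the 10 highest and 10 lowest differences, the largest of each class (appears 10, turns 8, vanishes 6, grows 6, shrinks 5) and of each arm (5), plus list members. Gm12238, whose transcript has 124 bases, is left out as uncertain, and Sqstm1, Gatsl2 and Lrrc16a are not described. Results of some other genes are not reported here. Members and lists were chosen with earlier results of these data known. Alternatives were the pseudocount, scaling, filter, summing and class limits.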

Additional observations from a re-analysis of the deposited data

Results flagged for a closer look

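Genes whose KO to WT ratio had opposite signs at the 2 culture times, each at least 0.5 in size on the log2 scale, are given here with their genotype by time difference. Each group held 1 library, so the difference between the times was not tested. Towards higher values in KO these were Tcf7 (3.68), Cpe (2.69), Ccl4 (2.66), Nt5e (2.42), Ms4a6c (2.15), Gramd3 (1.78), Cmpk2 (1.66), Ccl3 (1.66) and Foxp1 (1.53). Towards lower values they were S100a5 (-3.83), Cox6b2 (-3.40), Il13 (-3.23), Mt3 (-2.99), Ctsh (-2.93), Cd74 (-2.89), Il5 (-2.60), Il4 (-2.17), Tdrkh (-1.38) and Il10 (-1.17). The median of the Th2 cytokine list also had opposite signs at the 2 times, with a difference of -2.31.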

How the results depend on the processing

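With 1 library per group no replicate could be left out. No paired analysis was possible because each group held 1 library. Pairs of counts below are higher then lower. A pseudocount of 0.1 gave 690 genes at least 2-fold lower and 182 and 116 at least 4-fold. Classes were then grows 297 and 176, turns 38 and 60, vanishes 33 and 10, shrinks 11 and 2, and persists 185 higher. Arms were then WT 91 higher, KO 177 lower, opposite 177 and 142, and same direction 110 and 111. The naive and memory median was 0.23. A pseudocount of 5 gave 210 and 152 genes at 2-fold and 28 and 18 at 4-fold. Classes were then appears 110 and 93, grows 84 and 26, turns 1 and 11, vanishes 4 and 3, shrinks 0 and 0, and persists 32 and 8. Arms were then WT 13 and 29, KO 98 and 40, opposite 35 and 26, same direction 19 and 14, and mixed 45 and 43. Medians were -1.41 for Th2 cytokines, -0.58 for Th2 regulators and 0.25 for naive and memory genes. The pseudocount shifts low genes by construction.

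A mean of at least 5 FPKM, which tests fewer genes, left 263 genes past 2-fold and 57 past 4-fold among the higher ones. Classes were then appears 116 higher, grows 128 higher, turns 4 and 19, vanishes 9 and 2, and persists 64 and 9, and arms WT 30 and 50, KO 80 higher and mixed 47 higher. Without a filter 8 genes vanished lower, the Th2 cytokine median was -1.32 and that of chemokine receptors 0.029. Keeping short RNAs gave 138 and 86 at 4-fold, turns 27 higher, vanishes 31 and 23, and shrinks 4 and 7. An early limit of 0.25 left 98 and 144 that appeared. Turns of at least 1 numbered 3 and 5. A limit of 1 on the still arm gave 81 higher in the WT arm, 62 higher opposite, and 21 and 15 in the same direction. Counting intervals past 2-fold were found in 250 and 239 genes. Scaling moved the ribosomal protein median to 0.058 (median-of-ratios) and 0.076 (upper quartile), and the latter left 90 mixed lower genes. It also reversed the balance of the appearing class, 196 and 254 as deposited. This class held 213 and 186 genes with median-of-ratios and 215 and 179 with upper-quartile scaling. For other changes the cause was not tested. Of the 891 genes, 882 were also past 2-fold with a pseudocount of 0.1, 357 with 5, 801 with median-of-ratios and 781 with upper-quartile scaling. Differences of low genes are limited by depth.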

Other observations

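Receptor lists not described above held members of several classes. The counts of genes with a genotype by time difference of 2-fold or more are to be read against 4.07% of all compared genes higher and 4.17% lower. Of 16 compared inhibitory receptor genes 1 had a genotype by time difference at least 2-fold higher and 1 lower (median -0.21). The higher one, Cd244, reached the mean of 1 FPKM only through KO 3-week. Another 4 persisted higher in KO, at both times and within 2-fold (1.08% of all genes did). Lag3, a receptor gene that binds MHC class II, stood at 4.04 and 15.0 FPKM (WT, then KO) after 5 days and 11.4 and 36.6 FPKM in the longer culture, a difference of -0.06. Both genotypes held more Lag3 later at nearly the same ratio. Havcr2, the gene of TIM-3, stood at 2.47 and 11.7 FPKM and then 6.51 and 52.3 FPKM, a difference of 0.96. Among 12 chemokine receptor genes (median -0.34) the members went separate ways. Ccr2 grew higher in KO, at 11.9 and 46.9 FPKM and then 4.12 and 47.2 FPKM, where WT alone was lower later. Cxcr4 appeared lower at 136 and 140 FPKM and then 43.5 and 19.2 FPKM. Cxcr6 lost its KO excess at 20.9 and 42.9 FPKM and then 128 and 118 FPKM.

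Of 27 cytokine receptor genes 4 had a difference at least 2-fold higher and 4 lower (median 0.40), against 4.07% and 4.17% of all genes, as for the lists below. Csf2rb, the shared chain of the receptors for IL-3, IL-5 and GM-CSF, was near 0 FPKM in both WT libraries and reached 1.74 FPKM (KO 5-day) and 23.2 FPKM (KO 3-week), a difference of 3.07. It passed the mean of 1 FPKM only through KO 3-week. The related Csf2rb2 had a difference of 1.51, and reads may be split between these copies. Of 22 lysosome and cathepsin genes 3 parted upwards by 2-fold or more and 1 downwards (median 0.64). Ctsd, the gene of cathepsin D, stood at 145 and 352 FPKM and then 170 and 1661 FPKM, a difference of 2.00. Of 22 cell cycle inhibitor and p53 target genes 3 parted upwards and 2 downwards by 2-fold or more (median 0.14). Cdkn2b, the gene of p15, stood at 1.29 and 2.91 FPKM and then 2.52 and 20.7 FPKM. Vegfa, an angiogenic factor gene, appeared higher at 3.45 and 3.36 FPKM and then 0.543 and 4.08 FPKM. The myeloid marker sum, 19.9 FPKM in KO 3-week against 3.48 in WT 3-week, moved with several of these genes, and its part was not tested.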
